A study of Mus musculus with 16 samples.

Results

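Globin and erythroid genes were followed as a measure of the fetal blood RNA held in brain tissue: the alpha-globin genes Hba-a1 and Hba-a2, the beta-globin genes Hbb-bs and Hbb-bt, the heme synthesis gene Alas2 and the red cell membrane gene Slc4a1. The 6 genes were chosen by symbol, and all 6 were listed in each of 16 RNA-seq libraries, among 16250 symbols listed in any library and 13396 listed in all 16. The libraries came from wild-type (WT) mouse fetuses at embryonic day 18.5. They comprise hippocampus after enriched environment (EE, 3 libraries), hippocampus after standard habitation (SH, 3), cortex after EE (5) and cortex after SH (5). The exposure is prenatal, per the series title. As background, enriched housing offers animals more room and stimulation than a standard cage. All groups share the WT genotype and the age. The labels name neither fetuses nor litters, so the p-values measure only the spread between these libraries, which may share a litter.

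As background, hemoglobin is a tetramer of alpha-globin and beta-globin chains, each holding a heme, and its mRNAs dominate the RNA of red cell precursors and of young red cells that have lost the nucleus. In the late mouse fetus these cells are made mainly in the liver and circulate through every organ, so brain tissue taken with its vessels carries their RNA. Alas2 encodes the erythroid form of aminolevulinate synthase, the first and rate-limiting enzyme of heme synthesis. Slc4a1 encodes band 3, the chloride and bicarbonate exchanger that also anchors the red cell membrane skeleton. In bulk tissue, fewer red cells and less of a transcript per red cell cannot be told apart.

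In mm10 with the GENCODE M21 annotation, Hba-a1 lies at chr11:32283511-32284465 and Hba-a2 at chr11:32296489-32297298, both on the plus strand. Hbb-bs lies at chr7:103826534-103828096 and Hbb-bt at chr7:103812524-103813996, both on the minus strand. Alas2 lies at chrX:150547375-150570638 on the plus strand and Slc4a1 at chr11:102348824-102366203 on the minus strand. The globin genes are short. In the hippocampal tables, fewer than 3% of genes had a shorter effective length than any globin, as read from what 1 fragment was worth in FPKM: 1.55% for Hba-a1, 1.59% for Hba-a2, 2.25% for Hbb-bt and 2.39% for Hbb-bs. Alas2 followed with 23.3% and Slc4a1 with 65.3%.

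The 250 bases upstream of the RefSeq start of 5 of the 6 genes are shown because these genes are transcribed together in red cell precursors (RefSeq, GRCm38.p6, written 5′ to 3′ on the strand of the gene). There is no entry for Slc4a1. Capitals mark 4 motifs, each searched on both strands. The first is CCAAT, a common promoter element. The second is CACCC, the core of an element bound by factors of the Klf family. The next is GATAA, the core of sites that Gata factors bind. The last, ATATAA, resembles the element that positions the start of transcription. No motif contains another, and the matches are a description of letters only.
Hba-a1 (chr11:32283422-32283671, plus strand): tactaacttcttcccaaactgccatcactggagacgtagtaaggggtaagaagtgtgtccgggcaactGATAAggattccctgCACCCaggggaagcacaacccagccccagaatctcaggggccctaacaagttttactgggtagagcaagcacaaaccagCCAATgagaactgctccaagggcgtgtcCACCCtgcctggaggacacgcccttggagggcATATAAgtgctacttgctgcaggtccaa
Hba-a2 (chr11:32296242-32296491, plus strand): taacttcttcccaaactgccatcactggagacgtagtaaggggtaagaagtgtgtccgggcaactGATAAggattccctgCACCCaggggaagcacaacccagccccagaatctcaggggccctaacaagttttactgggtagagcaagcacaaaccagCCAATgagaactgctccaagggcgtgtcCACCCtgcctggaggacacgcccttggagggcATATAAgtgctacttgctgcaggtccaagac
Hbb-bs (chr7:103827929-103828178, minus strand): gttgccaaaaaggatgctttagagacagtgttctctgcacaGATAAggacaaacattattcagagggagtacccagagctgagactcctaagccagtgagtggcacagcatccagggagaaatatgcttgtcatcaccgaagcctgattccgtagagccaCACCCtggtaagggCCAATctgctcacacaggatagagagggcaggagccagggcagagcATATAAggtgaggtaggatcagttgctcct
Hbb-bt (chr7:103813924-103814173, minus strand): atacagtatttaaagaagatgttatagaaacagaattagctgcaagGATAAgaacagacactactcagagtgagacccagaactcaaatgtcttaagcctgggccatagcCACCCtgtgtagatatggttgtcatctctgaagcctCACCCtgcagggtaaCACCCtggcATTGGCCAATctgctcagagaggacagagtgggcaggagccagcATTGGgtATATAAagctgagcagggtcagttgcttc
Alas2 (chrX:150547167-150547416, plus strand): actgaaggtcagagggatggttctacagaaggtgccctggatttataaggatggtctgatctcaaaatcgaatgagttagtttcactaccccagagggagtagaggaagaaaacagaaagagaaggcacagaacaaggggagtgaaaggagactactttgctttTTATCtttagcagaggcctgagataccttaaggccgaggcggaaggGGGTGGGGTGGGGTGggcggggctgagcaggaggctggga

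Each of the 4 globin windows held all 4 motifs, which 153 of 32851 RefSeq windows of the same length did (0.4657%). Taken singly, CCAAT was found in 33.85% of all windows, CACCC in 52.01%, GATAA in 22.58% and ATATAA in 9.099%. Hbb-bt had 3 CCAAT and 3 CACCC matches, whereas Hbb-bs had 1 of each. The window of Alas2 held GATAA once and CACCC 3 times, all on the reverse strand, and neither CCAAT nor ATATAA. The windows of Hba-a1 and Hba-a2 were 97.63% identical, with a shared run of 247 bases, and those of Hbb-bs and Hbb-bt were 68.36% identical.

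The 2 copies of each chain are nearly one sequence in their coding part, which bears on how reads were divided between them. Coding sequences of Hba-a1 and Hba-a2 (429 bases each) differed at 1 base, C381T, and those of Hbb-bs and Hbb-bt (444 bases each) at 1 base, C417T, counted from 1 at the start codon with the base of Hba-a1 or Hbb-bs first. Identity was 99.77% in both pairs, against 55.43% between Hba-a1 and Hbb-bs. The 55 bases around each difference are shown with the differing base in capitals.
Hba-a1, coding bases 354 to 408: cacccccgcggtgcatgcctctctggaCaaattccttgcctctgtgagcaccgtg
Hba-a2, coding bases 354 to 408: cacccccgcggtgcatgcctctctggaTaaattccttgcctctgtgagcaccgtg
Hbb-bs, coding bases 390 to 444: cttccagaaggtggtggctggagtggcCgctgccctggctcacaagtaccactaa
Hbb-bt, coding bases 390 to 444: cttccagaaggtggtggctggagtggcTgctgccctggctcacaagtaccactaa

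Of all 100-base windows of a GENCODE M21 transcript, 56.5% for Hba-a1, 74.51% for Hba-a2, 62.57% for Hbb-bs and 54.8% for Hbb-bt occurred unchanged in the other copy. These transcripts had 699 bases for Hba-a1, 554 for Hba-a2, 628 for Hbb-bs and 703 for Hbb-bt. The effective lengths behind the deposited values were nearly equal within a pair, at 0.282 and 0.284 of Alas2 for alpha and 0.323 and 0.318 for beta. The shares may therefore differ for the transcripts that were quantified. The submitters' rule for reads that match both copies is not given in the sources used here. The division of reads within a pair is therefore uncertain, while the sum of a pair is less exposed to it.

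The libraries fall into 3 blocks whose tables list different genes: hippocampus, cortex replicates 1 to 3, and cortex replicates 4 and 5. Whole reads recovered from the FPKM steps numbered 11089726 to 20616808 per library. Cortex SH replicate 3 stood apart: its FPKM summed to 511438, against 339726 to 396658 in the other 15 libraries, and its deviations from the mean of its block fell with gene length (Spearman rho across genes -0.75, against -0.47 to 0.63 in the other libraries; genes are not independent replicates). Some results that rest on it are also given without it. The means over 16 libraries, the cortex SH means of Hbb-bs and Alas2 and the fits within cortex replicates 1 to 3 include it. The main fits of the differences of EE effects include it too. Of 7 tested genes listed as hippocampal markers, 5 were called higher in hippocampus. Of all 13158 genes tested between tissues, 24.6% were called higher and 10.9% lower. Among the 5 were Zbtb20 (log2 difference 2.13, limma adjusted p = 2.17e-05) and Prox1 (log2 difference 1.87, limma adjusted p = 7.19e-05). Meis2 was called lower (-1.38, limma adjusted p = 0.000200), and Lmo4, the most abundant of the list, did not pass (-0.33, limma adjusted p = 0.0563). The list's summed level did not separate the tissues, at 139 to 204 FPKM in hippocampal libraries and 161 to 212 FPKM in cortical ones.

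Globins stood among the most abundant transcripts of fetal brain, while the other erythroid genes did not. Of 13396 genes listed in all libraries, ordered by mean FPKM (fragments per kilobase of transcript and sequencing depth, so that length is already divided out), Hba-a1 ranked 50, Hbb-bs 74, Hbb-bt 337 and Hba-a2 757. Alas2 ranked 7198 and Slc4a1 13334. Mean levels over 16 libraries were 713 ± 391 FPKM for Hba-a1, 494 ± 321 for Hbb-bs, 148 ± 56.4 for Hbb-bt, 80.8 ± 63.6 for Hba-a2, 7.80 ± 2.37 for Alas2 and 0.357 ± 0.209 for Slc4a1 (SD, n = 16). Hba-a1 exceeded Hbb-bs in 14 of 16 libraries and Hbb-bt exceeded Hba-a2 in 14 of 16, so the spreads of these neighbours overlapped. Hbb-bs exceeded Hbb-bt, Hba-a2 exceeded Alas2 and Alas2 exceeded Slc4a1 in 16 of 16.

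Hba-a1, the main alpha-globin transcript here, had 969.5, 773 and 514 FPKM in hippocampus EE and 701, 623 and 430.1 FPKM in hippocampus SH. In cortex it had 609, 561, 626, 457 and 754 FPKM in EE replicates 1 to 5 and 817, 804, 2029, 339 and 407 FPKM in SH replicates 1 to 5. Cortex SH replicate 3 was the highest of all libraries, and cortex SH replicates 4 and 5 were the lowest. Hba-a2, the other alpha-globin gene, had 68.5, 102 and 61.0 FPKM in hippocampus EE and 238, 40.7 and 32.5 FPKM in hippocampus SH. Its cortex values were 43.5, 95.7, 52.2, 53.1 and 55.9 FPKM in EE and 68.2, 74.3, 231, 53.3 and 21.5 FPKM in SH. Hippocampus SH replicate 1 and cortex SH replicate 3 were the highest for Hba-a2, and the ratio of its highest to its lowest library, 11.1, was the widest of the 6 genes.

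Hbb-bs, the main beta-globin transcript here, had 401, 579 and 372 FPKM in hippocampus EE and 638, 273 and 236 FPKM in hippocampus SH. In cortex it had 399, 361, 336, 347 and 780.1 FPKM in EE and 471, 325, 1575, 333 and 469.9 FPKM in SH. The highest library was again cortex SH replicate 3, and cortex EE replicate 5 came next. Hbb-bt, its neighbour in the same cluster, had 86.4, 196 and 73.4 FPKM in hippocampus EE and 117, 80.6 and 125 FPKM in hippocampus SH. Its cortex values were 237, 142, 115, 102 and 199 FPKM in EE and 251, 140.3, 223, 136 and 146 FPKM in SH. For Hbb-bt the highest library was cortex SH replicate 1, not replicate 3, and in each tissue the EE and SH libraries overlapped.

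Alas2 had 7.21, 8.98 and 6.90 FPKM in hippocampus EE and 9.36, 4.24 and 4.65 FPKM in hippocampus SH. Its cortex values were 8.98, 6.16, 7.46, 5.55 and 9.11 FPKM in EE and 8.91, 6.12, 14.1, 7.88 and 9.31 FPKM in SH. The highest was cortex SH replicate 3, and without it the highest library was 2.21 times the lowest. Slc4a1 rested on 9 to 47 recovered reads per library, against 137 to 621 for Alas2 and 2439 to 25316 for Hba-a1. Slc4a1 had 0.168, 0.466 and 0.218 FPKM in hippocampus EE and 0.442, 0.193 and 0.243 FPKM in hippocampus SH. In cortex it had 0.188, 0.252, 0.192, 0.158 and 0.568 FPKM in EE and 0.450, 0.223, 0.374, 0.767 and 0.802 FPKM in SH. The highest Slc4a1 values were in cortex SH replicates 4 and 5, the libraries with the lowest Hba-a1.

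**Figure D1:**
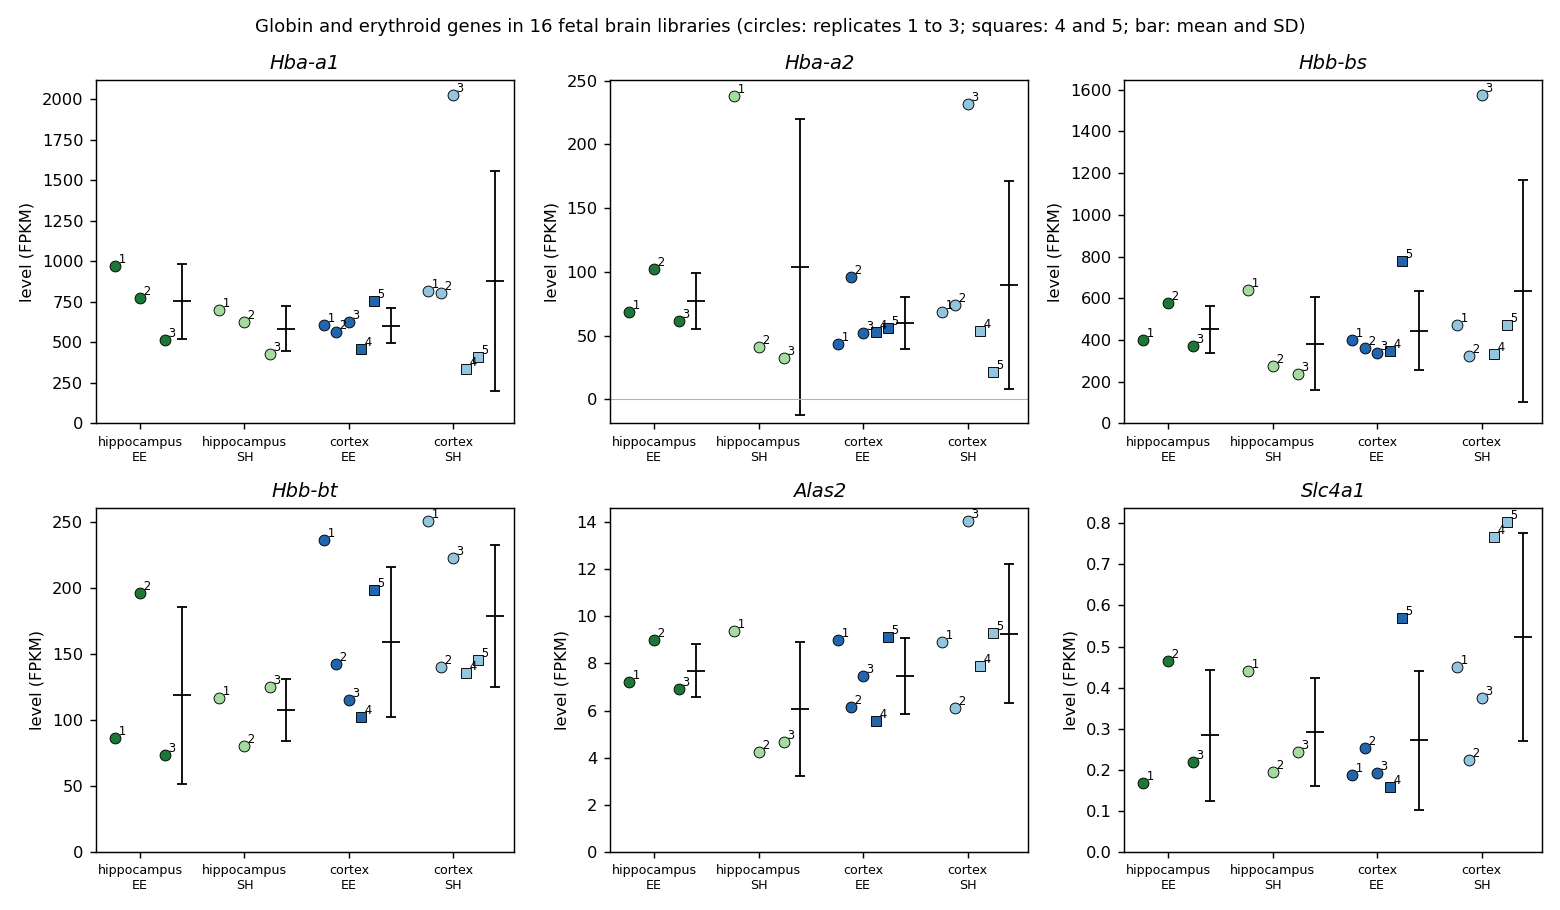
Level of each gene in FPKM (vertical axes, linear) in every library of the 4 groups, with the replicate number beside each point and the group mean with its SD at the right of each group. Cortex SH replicate 3 is the highest point for Hba-a1 (2029 FPKM), Hbb-bs (1575 FPKM) and Alas2 (14.1 FPKM) but not for Hbb-bt, Hba-a2 or Slc4a1.

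Cortex SH replicate 3 was set against the other 5 libraries of cortex replicates 1 to 3. It exceeded their median 4.36 times for Hbb-bs, 3.39 times for Hba-a2, 3.24 times for Hba-a1 and 1.88 times for Alas2, and for these 4 genes it lay above all 5. For Slc4a1 the ratio was 1.68 and for Hbb-bt 1.57, and both values lay within the range of the other 5. The median ratio over all genes with a mean of at least 1 FPKM was 0.942. The ferritin chains Ftl1 and Fth1, which store iron in most cell types, had ratios of 2.09 and 2.25. The endothelial gene list summed to 192 FPKM in this library against 116 to 156 FPKM in the other 5. The microglial list summed to 309.5 FPKM against 160 to 220.1 FPKM, and the platelet list to 68.3 FPKM against 25.4 to 38.0 FPKM. These lists were not alone in this. The neuronal list was also highest there (3643 FPKM against 3145 to 3518 FPKM), as was the meningeal and fibroblast list (2703 FPKM against 1041 to 1691 FPKM). The hippocampal marker list was not, at 180.5 FPKM against 177 to 190 FPKM. The short effective length of the globins and the length trend of this library move together, and the part of that trend in the globin values was not tested.

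The 4 globins together made up 0.225 to 0.793% of the summed FPKM of a library and 0.0521 to 0.268% of its recovered reads. The globin sum was 1526, 1650.4 and 1020.1 FPKM in hippocampus EE and 1694, 1017 and 824 FPKM in hippocampus SH. In cortex it was 1288, 1160.3, 1129, 959 and 1789 FPKM in EE and 1608, 1344, 4058, 861 and 1044 FPKM in SH. Group means were 1399 ± 334 FPKM in hippocampus EE, 1178 ± 457 in hippocampus SH (SD, n = 3 each), 1265 ± 315 in cortex EE and 1783 ± 1303 in cortex SH (SD, n = 5 each). Without replicate 3, cortex SH averaged 1214 ± 329 FPKM (SD, n = 4). All 4 groups overlapped in their globin sum.

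Alpha-globin mRNA was in most libraries above beta-globin mRNA. The ratio of alpha to beta FPKM was 2.13, 1.13 and 1.29 in hippocampus EE and 1.24, 1.87 and 1.28 in hippocampus SH. It was 1.03, 1.31, 1.50, 1.13 and 0.828 in cortex EE and 1.23, 1.89, 1.26, 0.835 and 0.696 in cortex SH. Values under 1 occurred in cortex EE replicate 5 and cortex SH replicates 4 and 5, all from the block of replicates 4 and 5, where the mean ratio was 0.873 ± 0.185 (SD, n = 4). The mean was 1.37 ± 0.297 in cortex replicates 1 to 3 and 1.49 ± 0.407 in hippocampus (SD, n = 6 each). The set of replicates cannot be told apart here from whatever else differed between those libraries.

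Reads were divided unevenly between the copies, and the division varied between libraries by more than counting error. Hba-a2 took 6.64, 11.7 and 10.7% of alpha-globin reads in hippocampus EE and 25.5, 6.18 and 7.07% in hippocampus SH. In cortex it took 6.71, 14.7, 7.75, 10.5 and 6.95% in EE and 7.76, 8.51, 10.3, 13.7 and 5.05% in SH. The share of 25.5% in hippocampus SH replicate 1 had a 95% Wilson interval of 24.6 to 26.4%, which overlapped no other library. Hbb-bt took 17.5, 25.0 and 16.3% of beta-globin reads in hippocampus EE and 15.3, 22.5 and 34.4% in hippocampus SH. In cortex it took 36.9, 28.0, 25.2, 22.5 and 20.1% in EE and 34.4, 29.8, 12.3, 28.7 and 23.4% in SH. The lowest share, 12.3% in cortex SH replicate 3, had an interval of 11.9 to 12.7%. These intervals cover counting error only, and with shared sequence a share also depends on the authors' handling of reads that match both copies.

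**Figure D2:**
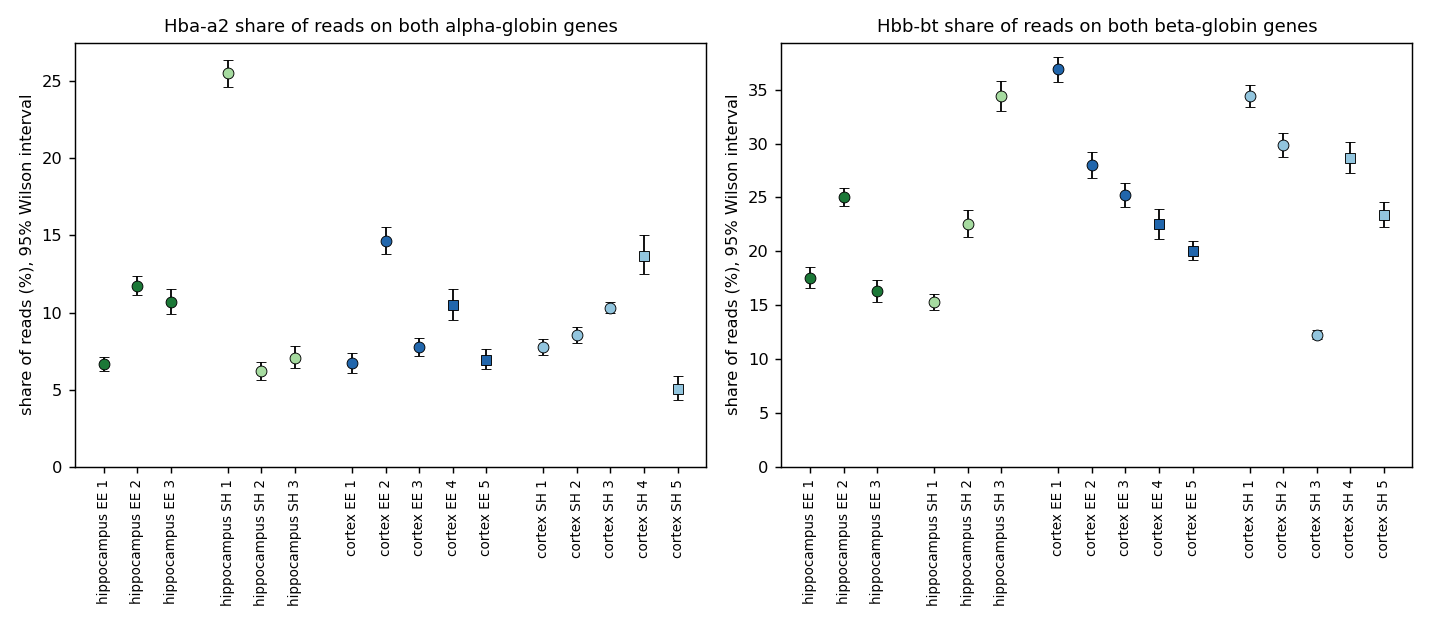
Share of recovered reads (vertical axes, percent, with 95% Wilson intervals as bars) taken by Hba-a2 of both alpha-globin genes and by Hbb-bt of both beta-globin genes, for each library. Hippocampus SH replicate 1 stands highest for Hba-a2 at 25.5%, and cortex SH replicate 3 lowest for Hbb-bt at 12.3%.

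The cortex comparison asked whether EE libraries held more or less blood RNA than SH libraries. None of the 6 genes passed the test. The sign of the fitted difference changed with the libraries used for the 4 globins, for Hbb-bt only with replicates 4 and 5 alone, while Alas2 stayed below 0 in the 21 alternatives run (-0.40 to -0.10). Mean Hba-a1 was 601 ± 108 FPKM in cortex EE against 879 ± 679.5 FPKM in cortex SH (SD, n = 5 each), or 592 ± 255 FPKM in cortex SH without replicate 3 (SD, n = 4). Mean Hbb-bs was 445 ± 189 FPKM in cortex EE against 635 ± 530.1 FPKM in cortex SH, and mean Alas2 was 7.45 ± 1.61 FPKM in cortex EE against 9.25 ± 2.96 FPKM in cortex SH (SD, n = 5 each). Fitted log2 differences of log2(FPKM + 1), EE minus SH and adjusted for the replicate set, were -0.26 ± 0.35 for Hba-a1, -0.21 ± 0.43 for Hba-a2, -0.30 ± 0.43 for Hbb-bs, -0.19 ± 0.25 for Hbb-bt and -0.26 ± 0.20 for Alas2 (SE), with limma adjusted p-values of 0.800 to 0.913 over 12539 genes. In that fit 1 gene passed at an adjusted p of 0.05 or less (0.00798% of those tested; 934 at an unadjusted p under 0.05), the microRNA host gene Mir124a-1hg, named after its value was seen, and limma-voom on recovered reads also called 1. Of the 5 members with a mean of at least 1 FPKM, 0 passed. The 95% interval for Hba-a1 ran from -1.04 to 0.51, and that for Alas2 from -0.71 to 0.19, each including both signs. Slc4a1 had a mean under 1 FPKM and entered only a fit without the filter on low values. Its log2 difference there was -0.25 ± 0.09 (SE; limma adjusted p = 0.568, 0.00744% of 13447 genes called). The 95% interval for Slc4a1, from -0.46 to -0.047, lay below 0 (limma unadjusted p = 0.0207). Mean Slc4a1 was 0.272 ± 0.169 FPKM in cortex EE against 0.523 ± 0.253 FPKM in cortex SH (SD, n = 5 each). Leaving out cortex SH replicate 3 gave 0.06 for Hba-a1, 0.17 for Hba-a2 and 0.12 for Hbb-bs.

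Within cortex, EE and SH libraries lay in opposite order for Hba-a1 in the 2 sets of replicates. In replicates 1 to 3, every EE library had less Hba-a1 (561 to 626 FPKM) than every SH library (804 to 2029 FPKM), as 18.6% of 12890 genes did, while the other 5 genes overlapped (11.2% of genes had every EE library above every SH library). In replicates 4 and 5, both EE libraries had more Hba-a1 (457 and 754 FPKM) than both SH libraries (339 and 407 FPKM), as 21.7% of 12576 genes did. Slc4a1 went the other way there, with 0.158 and 0.568 FPKM in EE against 0.767 and 0.802 FPKM in SH, as 25% of 13448 genes did without a filter. Fitted within replicates 1 to 3, the log2 difference was -0.88 ± 0.37 for Hba-a1 (SE; limma adjusted p = 0.414), -0.80 ± 0.49 for Hba-a2, -0.77 ± 0.53 for Hbb-bs, -0.34 ± 0.32 for Hbb-bt and -0.27 ± 0.27 for Alas2, with 0 of 12890 genes called (0%). Within replicates 4 and 5, with 2 libraries in each group, it was 0.66 ± 0.29 for Hba-a1 (SE; adjusted p = 0.194), 0.67 ± 0.21 for Hba-a2, 0.39 ± 0.29 for Hbb-bs, 0.02 ± 0.23 for Hbb-bt and -0.23 ± 0.23 for Alas2. Hba-a2 passed in that fit (limma adjusted p = 0.0434), among 435 genes called (3.46%, with 1.67% higher). Its libraries nevertheless overlapped, at 53.1 and 55.9 FPKM in EE against 53.3 and 21.5 FPKM in SH. For replicates 4 and 5 alone, limma set each gene's spread to that of genes of similar level. The SEs, p-values and 435 calls of that fit therefore do not measure each gene's own spread between these libraries. The difference between the sets, replicates 4 and 5 minus replicates 1 to 3, was 1.54 ± 0.55 for Hba-a1 (SE; limma adjusted p = 0.251), 1.47 ± 0.78 for Hba-a2, 1.17 ± 0.82 for Hbb-bs, 0.36 ± 0.52 for Hbb-bt and 0.04 ± 0.43 for Alas2. Of 12539 genes 0 passed for this difference by limma (0%) and 0 by limma-voom on recovered reads, and 2434 had an unadjusted p under 0.05.

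In hippocampus, EE and SH libraries overlapped for all 6 genes, and none passed. Of 13344 genes, 2.59% had every EE library above every SH library and 7.32% had every EE library below. Mean Hba-a1 was 752 ± 228 FPKM in hippocampus EE against 585 ± 139 FPKM in hippocampus SH, and mean Hbb-bs was 451 ± 112 FPKM in hippocampus EE against 383 ± 222 FPKM in hippocampus SH (SD, n = 3 each). Mean Alas2 was 7.69 ± 1.12 FPKM in hippocampus EE against 6.08 ± 2.85 FPKM in hippocampus SH. Mean Hba-a2 was 77.1 ± 21.8 FPKM in hippocampus EE against 104 ± 117 FPKM in hippocampus SH, and mean Slc4a1 was 0.284 ± 0.159 FPKM in hippocampus EE against 0.293 ± 0.131 FPKM in hippocampus SH (SD, n = 3 each). The log2 differences, EE minus SH, were 0.35 ± 0.28 for Hba-a1, 0.14 ± 0.69 for Hba-a2, 0.36 ± 0.38 for Hbb-bs, 0.03 ± 0.36 for Hbb-bt and 0.36 ± 0.26 for Alas2 (SE), each with a limma adjusted p of 0.9996. Of 13344 genes 0 passed (0%), 503 had an unadjusted p under 0.05 and limma-voom also called 0. The 95% interval for Hba-a1 ran from -0.31 to 0.996, and that for Hba-a2 from -1.50 to 1.77. The difference of the EE effects, hippocampus minus cortex over replicates 1 to 3, was 1.22 ± 0.49 for Hba-a1 (SE; limma adjusted p = 0.495), 1.13 ± 0.71 for Hbb-bs, 0.94 ± 0.94 for Hba-a2, 0.63 ± 0.41 for Alas2 and 0.36 ± 0.52 for Hbb-bt. For that difference 0 of 13158 genes passed by limma (0%) and 0 by limma-voom, with 990 at an unadjusted p under 0.05.

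Hippocampus and cortex were compared over replicates 1 to 3, with housing as a term. Hbb-bt was the only member that passed, lower in hippocampus: 86.4, 196 and 73.4 FPKM in hippocampus EE and 117, 80.6 and 125 FPKM in hippocampus SH, against 237, 142 and 115 FPKM in cortex EE and 251, 140.3 and 223 FPKM in cortex SH. The highest hippocampal library, EE replicate 2, lay above 3 of the 6 cortical ones. The log2 difference was -0.72 ± 0.26 (SE; limma adjusted p = 0.0456). With 4661 of 13158 genes called (35.4%, of them 24.6% higher and 10.9% lower), 1 of 5 members was no larger a share than that called in either direction. It was above the 10.9% called lower, but rests on 1 gene. The other log2 differences were -0.33 ± 0.30 for Hba-a1, -0.15 ± 0.47 for Hba-a2, -0.29 ± 0.38 for Hbb-bs and -0.28 ± 0.22 for Alas2 (SE; limma adjusted p 0.335 to 0.830), and 0.01 ± 0.08 for Slc4a1 without a filter, where 35.2% of genes were called. The call for Hbb-bt did not hold when libraries were scaled to equal sums of FPKM without globins (-0.64, adjusted p = 0.0723) or when 9 of the 12 libraries were left out one at a time (adjusted p up to 0.0996), and its division from Hbb-bs is uncertain as described above.

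Globin levels were set against Alas2 and Slc4a1 within the 2 blocks of 6 libraries. Of the 4 globins, Hbb-bs had the largest Pearson's r with Alas2 over the 6 libraries of each block, but not by each measure. Over the 6 hippocampal libraries its Pearson's r of log2(FPKM + 1) was 0.965 (exact permutation p = 0.0167) and Spearman's rho 0.943 (exact permutation p = 0.0167), and r was 0.958 without the 2 libraries farthest from the median of Hbb-bs. Over cortex replicates 1 to 3 r was 0.919 (exact permutation p = 0.00972) and rho 0.886 (exact permutation p = 0.0333), with r = 0.721 without the 2 farthest. There Hbb-bt with Alas2 gave r = 0.680 (exact permutation p = 0.146) and rho 0.6 (exact permutation p = 0.242), and its r without the 2 farthest, 0.836, was above that of Hbb-bs. Hba-a2 with Alas2 in hippocampus gave r = 0.891 (exact permutation p = 0.00972) and rho 0.943 (exact permutation p = 0.0167), and r = 0.972 without the 2 farthest, so its rho equalled that of Hbb-bs and its last r was higher. In cortex replicates 1 to 3, Hba-a1 with Alas2 gave r = 0.823 (exact permutation p = 0.0653) and rho 0.429 (exact permutation p = 0.419). That r was -0.32 without cortex EE replicate 2 and cortex SH replicate 3, so it rests on those libraries. In all, 18 relations were computed, none passed after Benjamini-Hochberg adjustment over them, and the smallest adjusted exact permutation p was 0.0875 for Pearson's r and 0.15 for Spearman's rho.

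Slc4a1, whose low read counts limit its precision, gave r of 0.158 to 0.806 with the 4 globins over both blocks. The largest r was with Hbb-bt in hippocampus, 0.806 (exact permutation p = 0.0472, adjusted 0.2125) with rho 0.714 (exact permutation p = 0.136) and r = 0.652 without the 2 farthest. With Hba-a1 in hippocampus r was 0.158 (exact permutation p = 0.75) and rho -0.0857 (exact permutation p = 0.919). The ratio of the globin sum to Alas2 was 212, 184 and 148 in hippocampus EE and 181, 240.1 and 177 in hippocampus SH. In cortex it was 144, 188, 151, 173 and 196 in EE and 180.4, 219.8, 289, 109 and 112 in SH. Cortex SH replicates 4 and 5 had the lowest ratios and cortex SH replicate 3 the highest. The ratio of the globin sum to Slc4a1 ran from 1122 in cortex SH replicate 4 to 10845 in cortex SH replicate 3.

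**Figure D3:**
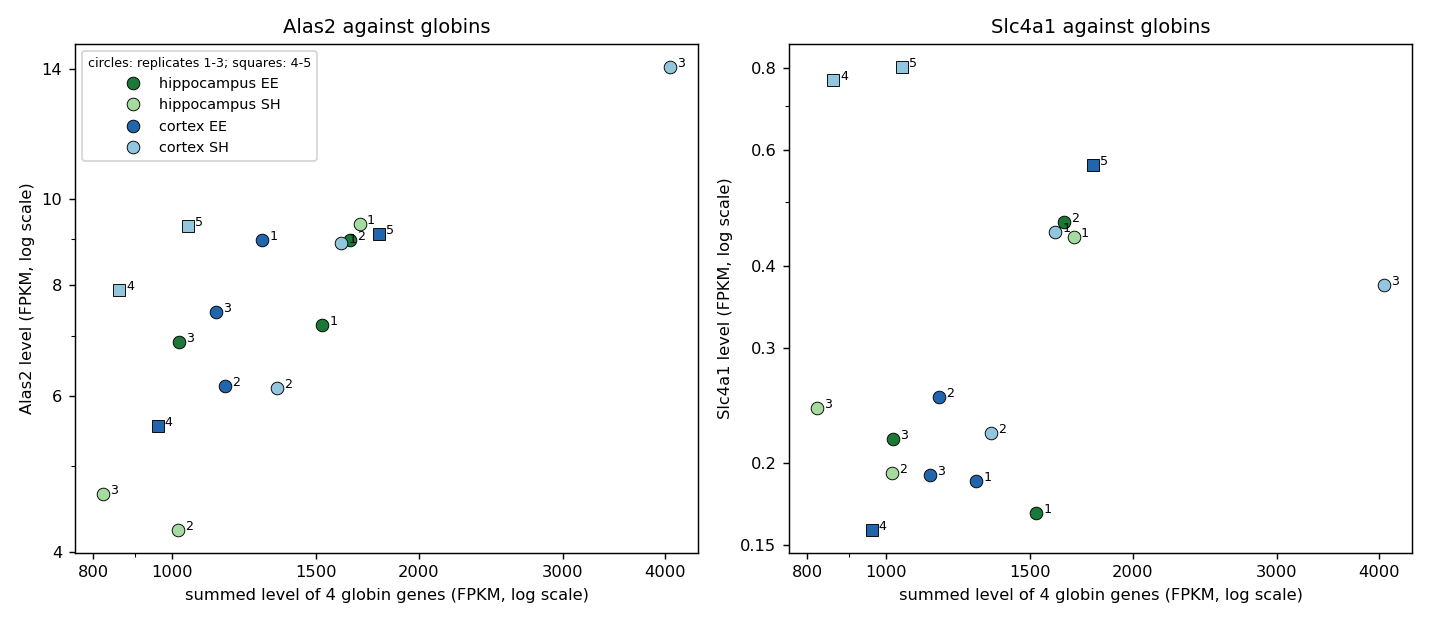
Alas2 and Slc4a1 levels (vertical axes, FPKM, log scale) against the summed level of the 4 globins (horizontal axes, FPKM, log scale), 1 point per library with its replicate number, circles for replicates 1 to 3 and squares for 4 and 5. Cortex SH replicates 4 and 5 lie at low globin sums of 861 and 1044 FPKM with the highest Slc4a1 levels, 0.767 and 0.802 FPKM.

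Genes of the same biology outside the 6 were followed as lists. The embryonic globins Hba-x, Hbb-y, Hbb-bh0, Hbb-bh1 and Hbb-bh2, the alpha-globin chaperone Ahsp and the erythroid transcription factors Gata1, Klf1, Nfe2 and Gfi1b were not analysed here. Hbq1a, a theta-globin gene, was listed only in cortex replicates 1 to 3, at 0.352 ± 0.216 FPKM in the EE libraries and 1.18 ± 0.487 FPKM in the SH libraries (SD, n = 3 each). Its EE range of 0.202 to 0.599 FPKM and SH range of 0.838 to 1.74 FPKM did not overlap. Without a filter, EE libraries were all lower than SH libraries for 16.4% of 15996 genes in that block. Hbq1a was picked out after its values were seen.

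Of the other globin family genes, Cygb (cytoglobin) averaged 13.3 FPKM, Ngb (neuroglobin, of neurons) 1.82 FPKM and Hbq1b (theta-globin) 1.65 FPKM over 16 libraries. Hbq1b was higher in hippocampus (log2 difference 0.94 ± 0.19 SE, limma adjusted p = 0.00254) and Ngb lower (-0.38 ± 0.13 SE, limma adjusted p = 0.0376), the 2 called of 3 tested between tissues. Of 19 genes of heme synthesis and iron supply, 3 were called, all higher in hippocampus: Ppox (0.83), Urod (0.55) and Fech (0.25), which encode late enzymes of heme synthesis (log2 differences, limma adjusted p 0.000211 to 0.0421). That share was not above that of all genes, of which 24.6% were called higher, 10.9% lower and 35.4% in all. The list's median log2 difference was -0.03, against 0.09 for all genes tested. Its most abundant members were Ftl1 (1310.5 FPKM), Fth1 (652 FPKM), the endosomal sorting gene Snx3 (101 FPKM) and the mitochondrial carrier Slc25a39 (23.9 FPKM), averaged over 16 libraries. These genes serve most cell types.

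Of 20 genes of red cell membrane and cytosol, 3 were called higher in hippocampus, the mitochondrial gene Fam210b (0.66), catalase (Cat, 0.42) and the membrane skeleton gene Epb41 (0.34), and the actin-bundling gene Dmtn was called lower (-0.80; log2 differences, limma adjusted p 0.000897 to 0.0426). Neither share was above that of all genes (24.6% higher, 10.9% lower). The median log2 difference of the 20 genes was -0.00211, against 0.09 for all genes. Foxo3, a transcription factor active in many tissues, was the 1 called of 6 tested erythroid transcription factor genes (0.56, limma adjusted p = 0.00934). Of that list Ldb1 (65.1 FPKM) and Bcl11a (32.6 FPKM), which neurons also express, and Lmo2 (10.4 FPKM), also an endothelial gene, had the highest means over 16 libraries. Of the 10 genes named so far from these lists as called between tissues, Hbq1b, Ppox, Fam210b and Dmtn kept the call under every alternative, while the other 6 lost it under at least 1. Fech and Epb41 lost it in 12 of 21 alternatives each and Ngb in 11 of 20, equal sums and the replicate block among them. Urod lost it in 2 of 21, under median-of-ratios scaling and without the 3 hippocampal libraries highest in choroid plexus genes, and Cat and Foxo3 in 1 of 21 each, without those libraries. Over all 12 lists, 0 of 113 tested genes passed between EE and SH in cortex, with 8 at an unadjusted p under 0.05, and 0 of 125 in hippocampus, with 1, by limma, and limma-voom called 0 in both tissues. In cortex the median log2 difference, EE minus SH, was -0.06 for heme synthesis and iron supply and -0.02 for red cell membrane and cytosol, against -0.02 for all genes. In hippocampus these medians were 0.02 and 0.04, against -0.01 for all genes.

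Markers of other cells that come with vessels and ventricles varied widely between hippocampal libraries. The 3 hippocampal libraries with the highest globin sums, EE replicates 1 and 2 and SH replicate 1 (1526, 1650.4 and 1694 FPKM), also had the 3 highest sums of choroid plexus genes (5109, 10533 and 17010.1 FPKM). The others, EE replicate 3 and SH replicates 2 and 3, had globin sums of 1020.1, 1017 and 824 FPKM and choroid plexus sums of 46.2, 44.4 and 158 FPKM. Ttr, the transthyretin gene that choroid plexus epithelium expresses at very high levels, had 4989, 10299.8 and 16656 FPKM in the first 3 libraries against 33.6, 37.9 and 144 FPKM in the others, and at most 689 FPKM in any cortical library. Endothelial genes summed to 139.5, 176 and 191 FPKM in the first 3 libraries and 125, 112 and 143 FPKM in the others. Meningeal and fibroblast genes, of which Ptgds is the most abundant, did not follow this order, with 161, 539 and 554 FPKM in the first 3 and 1271, 82.5 and 369 FPKM in the others. This pattern was noticed after the values were seen, and the part of choroid plexus or vessels in the globin values was not tested.

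All 12 choroid plexus genes of the list were listed in at least 1 block, 6 of them in all 16 libraries, and none of Ttr, Folr1, Calml4 and Otx2 was at 0 in a hippocampal library. The summed level ranged from 46.2 to 10533 FPKM in hippocampus EE, 44.4 to 17010.1 FPKM in hippocampus SH, 25.5 to 717 FPKM in cortex EE and 28.1 to 299.8 FPKM in cortex SH. With those 3 libraries left out, a setting added after the data were seen that leaves 1 EE and 2 SH hippocampal libraries, the log2 difference between hippocampus and cortex was -1.02 for Hbb-bt (limma adjusted p = 0.0285), -0.75 for Hba-a1, -0.92 for Hba-a2, -0.78 for Hbb-bs and -0.60 for Alas2 (adjusted p 0.128 to 0.261). Between tissues 3 of 11 tested choroid plexus genes were called higher in hippocampus, Calml4, Otx2 and Folr1 (log2 differences 2.20 to 2.94), and 6 of 12 meningeal genes were called lower, Foxc1, Vtn, Slc6a13, Ptgds, Aldh1a2 and Dcn (-3.02 to -0.77), where 24.6% of all genes were called higher and 10.9% lower. Folr1 lost its call in 8 of 21 alternatives, limma-voom among them. Pf4, the platelet factor 4 gene that brain macrophages also express, was 1 of 3 tested platelet genes and was called lower in hippocampus (-1.58, limma adjusted p = 0.00256). The vessel receptor gene Kdr was called higher (1.14) and the microglial gene Tmem119 lower (-0.65), as 1 of 15 endothelial and 1 of 12 microglial genes, and 0 of 3 leukocyte genes were called. Neither 1 of 15 nor 1 of 12 was above the share of all genes called in that direction.

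**Figure D4:**
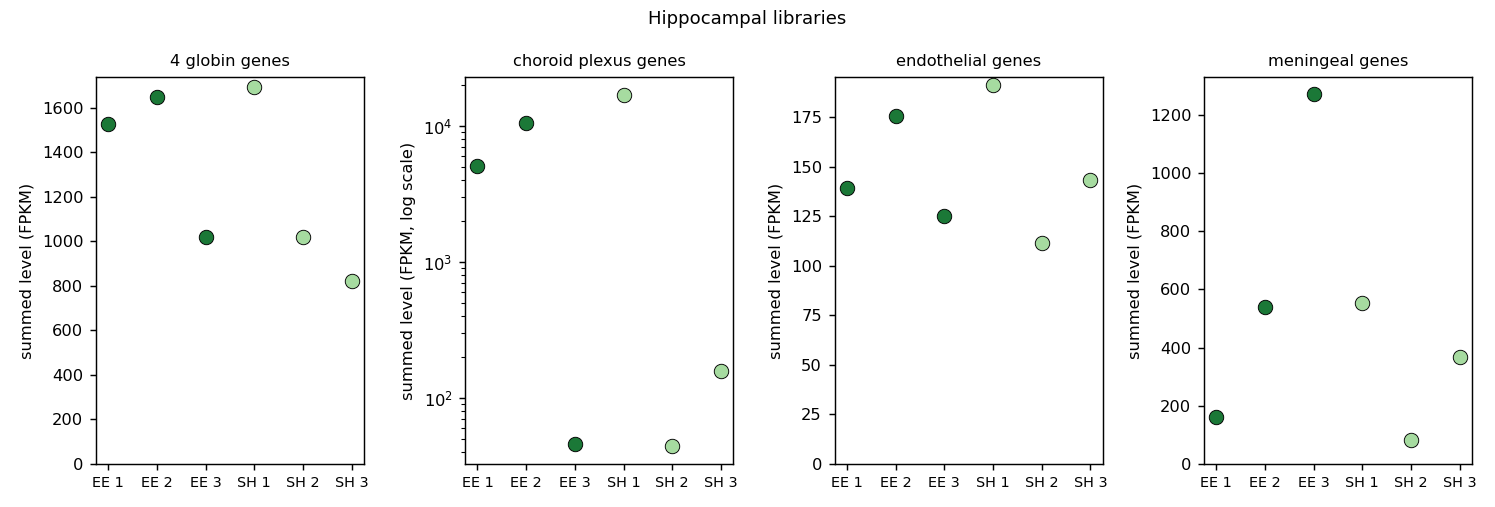
Summed FPKM of the 4 globins and of the choroid plexus (log scale), endothelial and meningeal gene lists (vertical axes) in the 6 hippocampal libraries. EE replicates 1 and 2 and SH replicate 1 are the 3 highest for globins and for choroid plexus genes, with choroid plexus sums from 5109 to 17010.1 FPKM against at most 158 FPKM in the others.

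Genes whose pattern over 16 libraries was most like that of the globins were sought by Pearson's r of log2(FPKM + 1), each as deviations from the mean of its block, over 12667 genes with a mean of at least 1 FPKM. For the mean of the 4 globins they were Anxa6 (r = 0.951), Rhoc (0.950), Smim4 (0.947), 2210016F16Rik (0.943), 1810058I24Rik (0.942), Gpx7 (0.941), Acadvl (0.939) and Anapc13 (0.932). Without cortex SH replicate 3 these values were 0.880 to 0.949. The globins' own r with their mean was 0.958 for Hbb-bs, 0.855 for Hba-a1, 0.849 for Hba-a2 and 0.572 for Hbb-bt, each raised by the globin being part of that mean. The r of Alas2 with the same mean was 0.81 and that of Slc4a1 was 0.415. The genes most like Alas2 were Khk, Gsta4, Smagp, Sdc4, Emc7, Ctsh, Wwox and Atp6v0e (r = 0.883 to 0.912), and Hbb-bs came close with 0.875. Those most like Slc4a1 were Adh1, Acy3, Mettl7a1, Trf, Ackr3, Erich1, Ephx2 and Cth (r = 0.872 to 0.926), and its highest r with another of the 6 genes was 0.625, with Alas2. The points share library, depth and length effects, so these values describe the libraries.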

How the data were processed

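RNA-seq libraries of mouse fetal cortex and hippocampus were made with a NEBNext Ultra kit from Trizol RNA, per the labels' protocols. Counting intervals are 95% Wilson intervals. The authors deposited FPKM values per gene symbol, 1 table per library. The build mm10 and the tools StringTie 1.3.4d, HISAT2 2.0.4, DESeq2, cutadapt 1.9 and edgeR are listed without roles, per the submitters' processing notes; annotation, read length and the filter on listed genes are not given in the sources used here. The tables list 15996, 13448 and 15247 genes in cortex replicates 1 to 3, cortex replicates 4 and 5, and hippocampus. A gene without a row was treated as missing, and 1 symbol with more than 1 row was left out.

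All tests are two-sided and used limma 3.58.1 (R 4.3.3; lmFit, eBayes with trend) on log2(FPKM + 1), which understates changes of low genes, for genes listed in all libraries of a fit with a mean of at least 1 FPKM, with Benjamini-Hochberg adjustment over all genes and a threshold of 0.05. Slc4a1 falls under that filter in every fit. Intervals are 95%. Whole reads were recovered from the steps of the FPKM values for 99.8937, 99.9479 and 99.9279% of genes in cortex replicates 1 to 3, cortex replicates 4 and 5, and hippocampus (within 0.003 reads of a whole number), as the smallest whole numbers that give the values of a gene within a block, and give the depth behind each value. Recovered genes carried 87.6 to 91.8% of the FPKM of a library. On simulated data, recovery was exact for 98.1, 92.3 and 98.2% of genes in the same order of blocks. Of simulated log2 shifts of 1, limma called 89% for cortex EE against SH and 73% for hippocampus EE against SH. It called 95% between tissues and only 45% for the difference of EE effects between tissues. The shifted genes were drawn at random, each simulated with its own spread and without effects shared within a library. These shares are therefore not those of the members, whose SEs for EE against SH reached 0.43 in cortex and 0.69 in hippocampus. Correlations used exact enumeration of 720 pairings. Sequences came from RefSeq (GRCm38.p6) and GENCODE M21 transcripts, whose longest reading frame was taken as coding. Figures used matplotlib 3.10.9.

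The genes named are the 6 members, list genes that passed a test or were abundant, and the 8 most alike per pattern. The members and lists were chosen with earlier results of these data known. Alternatives were another pseudocount, other filters, 2 scalings, limma without trend, a replicate block, single sets, left-out libraries and, added after seeing the data, limma-voom on recovered reads and leaving out 3 hippocampal libraries.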

Additional observations from a re-analysis of the deposited data

Results flagged for a closer look

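Single libraries lay far from the rest of their group by Dixon's ratio of gap to range, which was applied to 22 groups of 5 cortical libraries. Chance flags about 1 in 20 such groups where values are independent and normal. Here each group spans both sets of cortex replicates, and the globin sum contains the globin genes, so that rate is only a guide. In cortex SH, replicate 3 stood above the other 4 libraries for Hba-a1 (2029 FPKM), Hba-a2 (231 FPKM), Hbb-bs (1575 FPKM) and the globin sum (4058 FPKM), with ratios of 0.717 to 0.883 against a critical value of 0.71. In cortex EE, replicate 5 stood above the others for Hbb-bs (780.1 FPKM) and for Slc4a1 (0.568 FPKM), and replicate 2 for Hba-a2 (95.7 FPKM). Alas2 and Hbb-bt gave no such library. Cortex SH replicate 3 is also the library with the highest summed FPKM, and the part of that in its globin values was not tested.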

How the results depend on the processing

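Each member above the filter was recomputed in 5 comparisons under the alternatives run for each (the replicate block and the 3-library setting were not run for the 2 differences of EE effects): of 465 values, 428 kept direction and side of the threshold, 26 changed sign and 11 lost a call. Where a value changed, the cause was not tested beyond the libraries left out. In cortex EE against SH, 0 genes were called with no term for the set of replicates, 0 in replicates 1 to 3, 435 in replicates 4 and 5, and 1 to 3 when single libraries were left out (3 without cortex SH replicate 3). The 435 calls rest on spreads taken from genes of similar level. Replicates 4 and 5 alone gave 0.66 for Hba-a1, 0.67 for Hba-a2, 0.39 for Hbb-bs and 0.019 for Hbb-bt, and leaving out single libraries gave -0.52 to 0.060, -0.55 to 0.17 and -0.59 to 0.12 for the first 3 genes. In hippocampus EE against SH, leaving out single libraries gave -0.39 to 1.03 for Hba-a2 and -0.40 to 0.30 for Hbb-bt, equal sums gave -0.033 for Hbb-bt, and leaving out the 3 libraries high in choroid plexus genes gave -0.0097 for Hba-a1, -0.45 for Hbb-bt and 8 genes called, with 1 EE against 2 SH libraries and the lone EE library assumed to vary like the others.

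Between hippocampus and cortex, 2744 genes were called at a mean of at least 5 FPKM, 2131 without those 3 libraries and 3662 to 5760 with single libraries left out. Hbb-bt had adjusted p = 0.0537 at -0.72 with the 5 FPKM filter and 0.0723 at -0.64 with equal sums by limma, and -0.94 to -0.61 with single libraries left out, where the calls of 9 of 12 were lost. Single left-out libraries gave -0.49 to 0.15 for Hba-a2 and -0.43 to 0.074 for Hbb-bs. For the difference of EE effects between tissues, Hbb-bt ran from -0.065 to 0.66. For that between sets of cortex replicates, 0 to 3 genes were called (3 without cortex SH replicate 3, 1 without cortex EE replicate 5), Hbb-bt ran from -0.12 to 0.83 and Alas2 from -0.28 to 0.35, and Alas2 was -0.28 with equal sums. Among the correlations, Hba-a2 with Alas2 in cortex ran from -0.72 to 0.74 and Hba-a1 with Slc4a1 in hippocampus from -0.058 to 0.74. Scaling moved the median of all genes by -0.12 between tissues (median of ratios), and by -0.22 and -0.29 for the differences of EE effects (equal sums). Of 35 list genes called between tissues, 19 kept the call under every alternative and 0 changed sign. Without the 3 libraries high in choroid plexus genes, Cat, Foxo3, Urod, Fech, Epb41, Ngb, Folr1, Ptgds and Tmem119 were not called.

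The labels link samples only by a replicate number. Correlations of same-numbered deviations, EE with SH, were not all above 0.1 (cortex 0.0708 to 0.38, hippocampus -0.56 to 0.444). Different-numbered ones ran from -0.42 to 0.22 in cortex replicates 1 to 3 and from -0.54 to 0.67 in hippocampus. In that cortex set, replicates 1 and 3 had same-numbered values of 0.37 and 0.38, above all different-numbered ones. Values of cortex replicates 4 and 5, with 2 libraries per group, could only be equal and opposite. Whether same-numbered libraries belong together was not settled. With a replicate block, 1 gene in cortex, 0 in hippocampus and 4357 between tissues were called, and Hbb-bt between tissues had a limma adjusted p of 0.0329. The block ended the calls of Fech, Epb41 and Ngb between tissues (limma adjusted p = 0.0752, 0.0724 and 0.0635). Limma-voom and leaving out the 3 libraries were chosen after seeing the data. Depth limits Slc4a1 most, with 9 to 47 reads per library.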
